A study of Mus musculus with 12 samples.

Results

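The genes described here are the 10 subunits and inhibitors of the transcription factor NF-kappaB: Rela, Relb, Rel, Nfkb1, Nfkb2, Nfkbia, Nfkbib, Nfkbie, Nfkbiz and Tnfaip3. They were chosen by name among the 38339 gene identifiers of the deposited table, each matched 1 row, and all 10 passed the filter on low values, as did 12358 genes in all. RNA came from the bone marrow of mice into which primary T-ALLs had been transplanted, that is, leukemias of the T lineage that arise from immature T cells (strain C57BL/6 x 129Sv/Jae F1). Recipients were moribund, and 4 hours before the marrow was taken they received either vehicle (VEH) or dexamethasone (DEX, a synthetic glucocorticoid). There were 6 leukemias with 1 VEH and 1 DEX library each, so the replicate is the leukemia, and each arm of a leukemia is 1 library. Leukemia 1 is 73A-46B, leukemia 2 is 73M-19A, leukemia 3 is 78A-143B, leukemia 4 is 2M-127B, leukemia 5 is 20M-116B and leukemia 6 is JW-81-59B. Age and driving mutation are not given in the sources used here. Marrow also holds the host's own cells, and only red cells were lysed.

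NF-kappaB proteins act as pairs of subunits. RelA (p65), RelB and c-Rel carry the part that activates transcription, while Nfkb1 and Nfkb2 encode long precursors that are cut to the DNA-binding subunits p50 and p52. In resting cells the IkB proteins (Nfkbia for IkB-alpha, Nfkbib for IkB-beta, Nfkbie for IkB-epsilon) hold the pairs in the cytoplasm until a kinase complex marks them for destruction, and Tnfaip3 (A20) removes ubiquitin chains that carry the upstream signal. Nfkbia and Tnfaip3 are themselves switched on by NF-kappaB, which makes them feedback brakes. In thymocytes and T-ALL the pathway is driven by T-cell and TNF-family receptors, and glucocorticoids are known to restrain it in many cell types.

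All 13 T lineage markers passed the filter, and their summed level was 1747 to 2791 FPKM in VEH and 1571 to 2530 FPKM in DEX, lower with DEX in 6 of 6 leukemias (FPKM is fragments per kilobase of gene length, scaled to the depth of the library). Of these 13 genes, 5 fell and 1 rose. Cd3e stood at 89.1 ± 12.6 FPKM in VEH (SD, n = 6). Of the 8 glucocorticoid reference genes, 7 were tested and 5 rose, among them Fkbp5 from 305 to 633 FPKM and Ddit4 from 48.3 to 148 FPKM. RNA of myeloid markers was present in every library. The sum of 15 granulocyte markers was 2349 to 9163 FPKM in VEH and 1539 to 5541 FPKM in DEX, lower with DEX in 5 of 6 leukemias, and the sum of 11 monocyte and macrophage markers was 92.3 to 561 and 48.7 to 328 FPKM. The VEH library of leukemia 2 stood apart, with the highest sums of erythroid (763 FPKM) and B lineage markers (483 FPKM), against 95.03 and 134 FPKM in its DEX library. No marker was at 0 in all libraries. In such bulk RNA, fewer cells of a type and less RNA per cell cannot be told apart.

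With dexamethasone, the inhibitor genes Nfkbia and Tnfaip3 rose and the precursor gene Nfkb2 fell, while the other 7 members did not pass the test. Nfkbia rose 1.59-fold and Tnfaip3 2.01-fold on the scale of log2(FPKM + 1), and Nfkb2 fell to 0.72 of its VEH level on the same scale. The test was limma with the leukemia as a block, and a gene was called at an adjusted p under 0.05. Among all genes tested, 4.27% were called higher and 9.28% lower, so 2 higher and 1 lower of 10 members are to be read against about that background. The median difference was -0.08 over the 10 members and -0.05 over all genes tested. No member had VEH and DEX ranges that did not overlap (0 of 10), which 0.388% of all genes had with DEX higher and 1.34% with DEX lower.

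Some of the calls depended on how the libraries were scaled. Nfkbia, Tnfaip3 and Nfkb2 passed under median-of-ratios scaling, quantile normalization and rescaling to TPM (limma adjusted p up to 0.0337). Nfkb1 also passed when rescaled to TPM. An added scaling to the mean of the 13 T lineage markers, chosen after seeing the data and resting on markers of which 6 changed themselves, moved the median of all genes from -0.05 to 0.16. Under it Nfkbia (0.88, adjusted p = 0.0012) and Tnfaip3 (1.22, adjusted p = 0.0091) still passed. Nfkb2 did not (-0.25, adjusted p = 0.0947), and Nfkb1 (0.08), Rel (0.01) and Rela (0.20) turned sign without passing.

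The letters around the start sites of these 3 genes are shown because each holds matches to the classical NF-kappaB consensus, the sequence that Rel proteins bind. RefSeq windows from 250 bases before to 50 bases after a start (GRCm38.p6) were matched for 7 of 10 members, with 10 windows in all. Nfkb1, Relb and Nfkbiz had no entry. Capitals mark the consensus, searched on both strands with overlapping matches merged.
Nfkbia, chr12:55492648-55492897, minus strand, the 250 bases before the start: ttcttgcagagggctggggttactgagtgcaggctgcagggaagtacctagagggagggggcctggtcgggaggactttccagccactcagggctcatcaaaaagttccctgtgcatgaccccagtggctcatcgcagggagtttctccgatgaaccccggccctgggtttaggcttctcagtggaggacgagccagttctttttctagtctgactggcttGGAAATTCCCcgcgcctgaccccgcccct
Tnfaip3, chr10:19015411-19015547, minus strand, the 137 bases before the start that lie outside its annotated exons: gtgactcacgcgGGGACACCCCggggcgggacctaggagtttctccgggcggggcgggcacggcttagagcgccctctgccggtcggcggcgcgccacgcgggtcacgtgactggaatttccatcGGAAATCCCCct
Nfkb2, chr19:46304689-46304717, plus strand, at its upstream start: gatcgtcacGGGAATTCCCCccctcgggg
Nfkb2, chr19:46305695-46305724, plus strand, at a downstream start: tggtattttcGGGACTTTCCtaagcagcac
The consensus was found in windows of 5 of the 7 members, namely Nfkb2, Rel, Nfkbia, Nfkbie and Tnfaip3, and in none of Rela and Nfkbib, against 9.55% of all 27025 genes with a window. By window it was 7 of 10, against 8.46% of all 32851 windows. Among the 7, overlapping Nfkb2 windows share the match of the downstream stretch printed above, so that match counts more than once. Both Nfkb2 stretches lie in annotated exons of the gene. The palindromic glucocorticoid response element, searched as AGAACA and TGTTCT with any 3 bases between them, was in 0.01% of windows and in none of the members' windows. At so low a share, no match in 10 windows says nothing about these genes. Looser forms of the element and sequence outside the windows were not searched. Matching letters are a description of these windows, and binding was not measured.

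Among the subunits, Nfkb1 was the most abundant member in VEH, at 54.9 ± 8.93 FPKM (SD, n = 6; ENSMUSG00000028163, chromosome 3, 135584655 to 135691547). Its VEH levels in leukemias 1 to 6 were 59.12, 53.58, 66.09, 61.33, 44.59 and 44.59 FPKM, and its DEX levels 48.12, 47.39, 57.16, 51.96, 43.44 and 47.89 FPKM. It was lower with DEX in 5 of 6 leukemias and higher in leukemia 6, and the groups overlapped. The log2 difference was -0.14 ± 0.07 (SE), which did not pass (adjusted p = 0.199). With the libraries rescaled to a fixed sum (TPM), it was -0.28 and passed (adjusted p = 0.0394).

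Nfkb2, the p100 precursor of the noncanonical arm (ENSMUSG00000025225, chromosome 19, 46304320 to 46312385), fell by 0.47 ± 0.10 on the log2 scale (SE, n = 6; adjusted p = 0.0203). In leukemias 1 to 6 it stood at 4.53, 8.07, 3.18, 7.01, 4.25 and 10.68 FPKM in VEH and at 2.80, 3.92, 2.43, 4.62, 2.93 and 9.25 FPKM in DEX. It was lower in 6 of 6 leukemias, a pattern that 13.7% of all genes tested shared, but the groups overlapped because leukemias differed more than treatments did. Leukemia 6 was highest in both arms, and leukemia 3 was lowest in both. The DEX level was 0.49 to 0.87 of the VEH level within a leukemia. The call ended without leukemia 1 (-0.46, adjusted p = 0.0634), 4 (-0.46, adjusted p = 0.0606) or 5 (-0.48, adjusted p = 0.0609), and with a term for the myeloid markers (-0.42, adjusted p = 0.0621). With a term for B lineage and erythroid markers, chosen after seeing the data, it was -0.36 (adjusted p = 0.0593), and it also ended under T lineage scaling. Exons of a gene on the opposite strand, AC114539.1, overlap those of Nfkb2 by 531 bases, and whether the counting used strand is not given in the sources used here.

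Relb, the usual partner of p52, had the lowest level of the members, with a mean of 1.44 ± 0.63 FPKM under vehicle and of 0.95 ± 0.37 FPKM under DEX (SD, n = 6). Leukemias 1 to 6 had 1.01, 1.59, 0.75, 2.51, 1.13 and 1.67 FPKM in VEH and 0.64, 0.75, 0.66, 1.17, 0.88 and 1.60 FPKM in DEX. Like Nfkb2 it was lower in 6 of 6 leukemias, with the smallest difference in leukemia 6. Its log2 difference of -0.31 ± 0.12 did not pass (adjusted p = 0.129). Relb reached 1 FPKM in 5 VEH and 2 DEX libraries, so it entered the test mainly through the VEH libraries.

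Rel, which encodes c-Rel, did not pass either (-0.21 ± 0.15, adjusted p = 0.377), with VEH levels of 0.78 to 3.30 FPKM and DEX levels of 0.87 to 2.85 FPKM. Its difference came mostly from leukemia 2, where it stood at 2.76 FPKM in VEH and 0.92 in DEX. That VEH library is the one with the highest B lineage and erythroid sums. With the term for those markers, chosen after seeing the data, the difference of Rel was -0.02 ± 0.11 (SE, limma adjusted p = 0.936). Without leukemia 2 it was -0.05 ± 0.10 (SE, limma adjusted p = 0.787). The B lineage and erythroid marker means fell most in that pair (-1.59 and -2.66 on the log2 scale). The term and leukemia 2 therefore cannot be told apart, and a cause was not tested. Rela encodes the p65 subunit. Its VEH mean was 12.4 ± 1.60 FPKM and its DEX mean 12.2 ± 0.93 FPKM (SD, n = 6), higher in 3 leukemias and lower in 3. Its log2 difference was -0.02, with a 95% interval of -0.20 to 0.16, and its sign turned under median-of-ratios scaling (0.04), quantile normalization (0.04) and T lineage scaling (0.20).

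Within each library, the 5 subunits can be set against each other, since FPKM is per length and library scaling drops out. Of their sum, Nfkb1 made up 70.9 ± 5.31% under vehicle and 72.1 ± 4.32% under DEX (SD, n = 6), and Rela 16.2 ± 1.98% and 17.8 ± 0.96%. The share of Nfkb2 was 8.27 ± 3.93% in VEH and 6.23 ± 3.29% in DEX, smaller in 6 of 6 leukemias. In leukemia 6 it was 14.9% in VEH and 12.5% in DEX, and in leukemia 3 it was 3.71% and 3.34%. The ratio of Nfkb2 to Nfkb1 FPKM was therefore lower with DEX in every leukemia, at 0.05 to 0.24 in VEH and 0.04 to 0.19 in DEX. The share of Relb was smaller in 5 of 6 leukemias and that of Rela larger in 5 of 6. These shares were not tested.

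**Figure D1:**
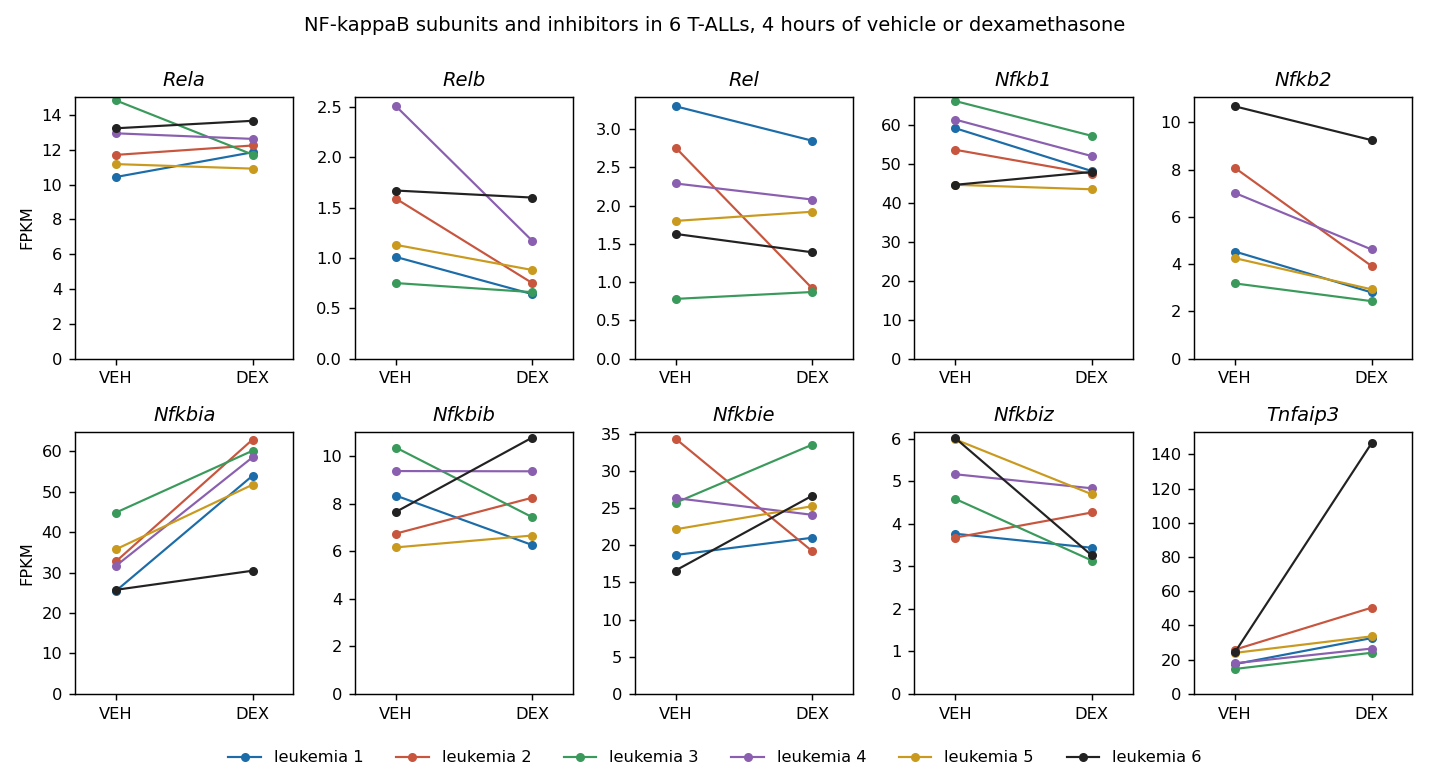
FPKM (linear axes from 0) of the 10 members in VEH and DEX libraries; each line joins the 2 libraries of 1 leukemia. Nfkbia and Tnfaip3 were higher with DEX in 6 of 6 leukemias and Nfkb2 and Relb lower in 6 of 6, with Tnfaip3 at 146.49 FPKM in the DEX library of leukemia 6.

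Nfkbia (ENSMUSG00000021025, chromosome 12, 55489410 to 55492647) was the member with the smallest p. In leukemias 1 to 6 it stood at 25.49, 32.76, 44.83, 31.68, 35.75 and 25.73 FPKM in VEH and at 53.93, 62.86, 60.11, 58.48, 51.71 and 30.45 FPKM in DEX. In leukemias 1 to 5 every DEX value was above all 6 VEH values, while leukemia 6 in DEX stayed within the VEH range. The mean rose from 32.7 ± 7.18 to 52.9 ± 11.7 FPKM (SD, n = 6), with a log2 difference of 0.67 ± 0.11 (SE, adjusted p = 0.0074, 95% interval 0.42 to 0.92). Higher in 6 of 6 leukemias, it shared that pattern with 5.97% of all genes tested. The DEX level was 2.12 times the VEH level in leukemia 1 and 1.18 times in leukemia 6. Leaving out any 1 leukemia gave 0.59 to 0.75, past the threshold each time, and a term for the myeloid markers gave 0.65 (adjusted p = 0.0260).

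The library descriptions carry a trailing S number of unstated meaning, which is missing for the DEX libraries of leukemias 2, 5 and 6. Within leukemias 1, 3 and 4 the difference of Nfkbia was 0.78 (adjusted p = 0.0241), and within leukemias 2, 5 and 6 it was 0.56 (adjusted p = 0.0749). The same subsets gave 0.70 (adjusted p = 0.0145) and 1.31 (adjusted p = 0.0728) for Tnfaip3, and -0.45 (adjusted p = 0.0730) and -0.50 (adjusted p = 0.143) for Nfkb2. All 3 genes had 1 direction in 6 of 6 leukemias, so their direction in these subsets was fixed in advance.

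The other IkB genes did not pass. Nfkbie, next to Nfkbia in VEH level, had a mean of 23.96 ± 6.35 FPKM there and of 24.9 ± 5.01 FPKM with DEX (SD, n = 6; log2 difference 0.07 ± 0.16, adjusted p = 0.796). Single leukemias ranged from 34.32 FPKM in VEH against 19.21 in DEX (leukemia 2) to 16.59 against 26.63 (leukemia 6), so the leukemias differed in direction, with 4 higher and 2 lower. Nfkbib stood at 8.10 ± 1.59 and 8.12 ± 1.71 FPKM, higher in 3 leukemias and lower in 3 (0.00 ± 0.12, 95% interval -0.28 to 0.28). Its exons overlap those of Sirt2 on the opposite strand by 42 bases. Nfkbiz, a nuclear IkB protein that works as a cofactor of p50 pairs, had a VEH mean of 4.87 ± 1.04 FPKM and a DEX mean of 3.94 ± 0.75 FPKM, lower in 5 of 6 leukemias (-0.24 ± 0.12, adjusted p = 0.211).

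Set against the subunits within each library, Nfkbia RNA was higher with DEX in 6 of 6 leukemias. Its ratio to Rela FPKM was 2.44, 2.80, 3.02, 2.45, 3.20 and 1.94 in VEH and 4.55, 5.13, 5.12, 4.63, 4.74 and 2.23 in DEX, for leukemias 1 to 6. Leukemia 6 had the lowest ratio in both arms, and the other 5 DEX ratios lay above every VEH ratio. The ratio to Nfkb1 was 0.60 ± 0.13 in VEH and 1.08 ± 0.23 in DEX (SD, n = 6). Nfkbia, Nfkbib and Nfkbie together stood at 0.84 ± 0.15 of the summed subunits in VEH and 1.26 ± 0.18 in DEX, higher in 6 of 6 leukemias. Of the FPKM of these 3 IkB genes, Nfkbia made up 50.4 ± 4.62% in VEH and 61.0 ± 8.64% in DEX. That share was larger in 5 leukemias, but in leukemia 6 it was 51.5% in VEH and 44.9% in DEX.

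**Figure D2:**
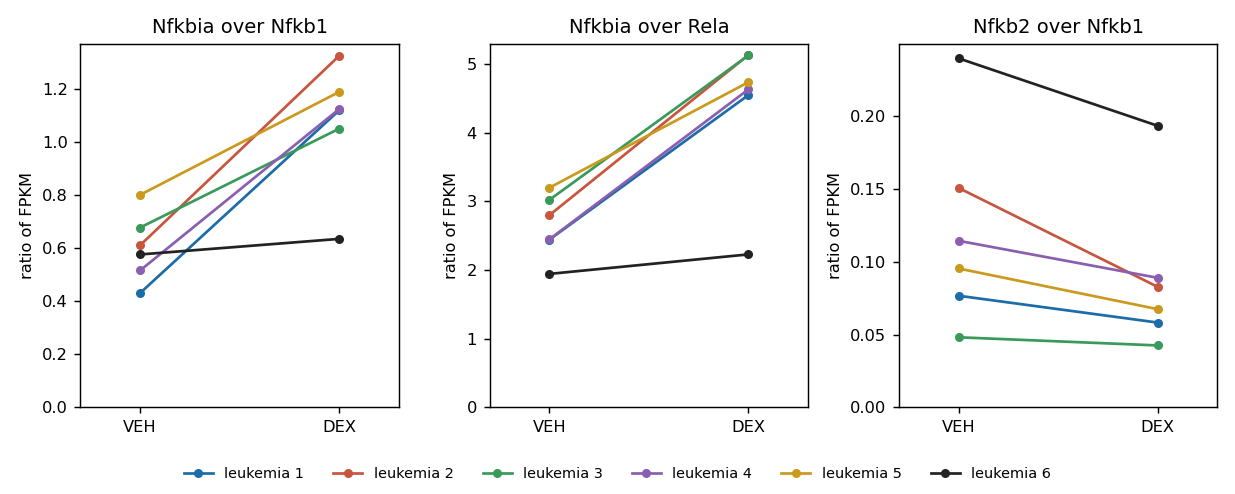
Ratio of FPKM within a library (linear axes from 0) for Nfkbia over Nfkb1, Nfkbia over Rela and Nfkb2 over Nfkb1, in VEH and DEX; each line is 1 leukemia. The Nfkbia ratios were higher and the Nfkb2 ratio lower with DEX in 6 of 6 leukemias, and leukemia 6 had an Nfkbia over Rela ratio of 1.94 in VEH and 2.23 in DEX.

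Tnfaip3, which encodes the ubiquitin-editing enzyme A20 (ENSMUSG00000019850, chromosome 10, 19000910 to 19015657), rose in 6 of 6 leukemias. It stood at 17.42, 25.90, 14.59, 17.94, 23.99 and 24.46 FPKM in VEH and at 32.62, 50.39, 24.05, 26.50, 33.65 and 146.49 FPKM in DEX, in leukemias 1 to 6. The DEX library of leukemia 6 stood far above the other 5, and the VEH and DEX ranges overlapped only between 24.05 and 25.90 FPKM. The mean rose from 20.7 ± 4.64 to 52.3 ± 47.1 FPKM (SD, n = 6), with a log2 difference of 1.01 ± 0.24 (SE, adjusted p = 0.0273). The DEX level was 1.40 to 5.99 times the VEH level within a leukemia, and the largest ratio was that of leukemia 6.

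Without leukemia 6 the rise of Tnfaip3 was smaller and more even, at 0.70 ± 0.09 (SE, n = 5, limma adjusted p = 0.0032). The call ended without leukemia 1 (1.03, adjusted p = 0.0677), 2 (1.02, adjusted p = 0.0602) or 5 (1.11, adjusted p = 0.0518), sets that all hold leukemia 6. With a term for the myeloid markers it was 0.80 (adjusted p = 0.0957), and with the B lineage and erythroid term 1.05 (adjusted p = 0.0758). The granulocyte sum in leukemia 6 was 3849 FPKM in VEH and 1539 FPKM in DEX. The mean of these markers fell most in leukemias 2 and 6 (-1.15 and -1.14 on the log2 scale). Those leukemias had the largest Tnfaip3 differences (0.93 and 2.53). In leukemias 1 and 5 the granulocyte mean fell less (-0.52 and -0.29), and the Tnfaip3 differences were 0.87 and 0.47. In leukemias 3 and 4 the granulocyte mean rose (0.61 and 0.14), and Tnfaip3 rose as well (0.68 and 0.54). The mean of the monocyte and macrophage markers fell most in leukemias 2 and 5 (-0.59 and -0.48). It fell less in leukemias 1 and 6 (-0.28 and -0.24) and rose in leukemias 3 and 4 (0.46 and 0.21). Whether myeloid content bears on the Tnfaip3 level was not tested.

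**Figure D3:**
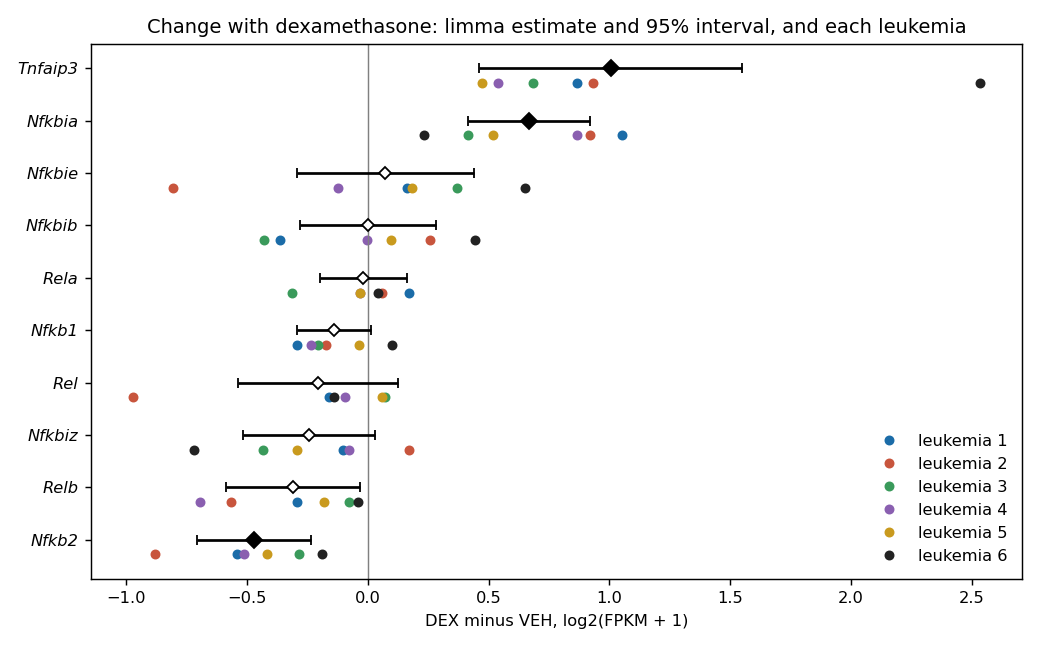
DEX minus VEH on the log2(FPKM + 1) scale (x axis) for each member (y axis): diamonds are limma estimates with 95% intervals, filled where the adjusted p was under 0.05, and dots are single leukemias. Nfkbia (0.67), Tnfaip3 (1.01) and Nfkb2 (-0.47) passed, and the dot of leukemia 6 for Tnfaip3 stands at 2.53.

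The members' levels kept a broad order. In VEH it ran Nfkb1, Nfkbia, Nfkbie, Tnfaip3, Rela, Nfkbib, Nfkb2, Nfkbiz, Rel and Relb, by mean FPKM. Ranges over the 6 leukemias overlapped in 7 of the 9 neighbouring pairs, and did not between Rela and Nfkbib or between Nfkbiz and Rel. In DEX, Nfkbia and Tnfaip3 had the highest means, with ranges that overlapped each other, and that of Tnfaip3 overlapped Nfkb1. The place of Tnfaip3 above Nfkb1 rests on the DEX library of leukemia 6 (146.49 FPKM). Its DEX median was 33.1 FPKM, against 48.0 FPKM for Nfkb1. Tnfaip3 was below Nfkb1 in the DEX libraries of leukemias 1, 3, 4 and 5 and above it in leukemias 2 and 6. Nfkb1 stood above Nfkbie, Nfkbie above Rela and Rela above Nfkbib with no overlap, as did Nfkbiz above Rel.

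Between leukemias, 4 of 10 members differed in the limma F test on the leukemia terms (Nfkb1, Nfkb2, Rel and Nfkbia), against 51.1% of all genes tested. Nfkb2 was the clearest (adjusted p = 0.0014), with a VEH level 3.36 times as high in leukemia 6 as in leukemia 3. The other 3 were close to the threshold (adjusted p = 0.0475 for Nfkb1, 0.0466 for Rel and 0.0425 for Nfkbia). Tnfaip3 (adjusted p = 0.0618), Relb (adjusted p = 0.0800), Nfkbib (adjusted p = 0.294), Nfkbiz (adjusted p = 0.316), Rela (adjusted p = 0.358) and Nfkbie (adjusted p = 0.507) did not pass.

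Over the 12 libraries, the profile of Nfkbia was most like those of Usp2, a ubiquitin-specific protease (Pearson r = 0.98), Acp5 (0.97), Thnsl2 (0.95) and Osbpl3 (0.93). That of Nfkb2 was most like Pde4b, a cyclic AMP phosphodiesterase (0.94), Slc9a9 (0.93), Tbc1d1 (0.93) and Sipa1l2 (0.92). These values describe likeness over libraries that share leukemias in pairs. They are the highest among the genes tested, leaving out the members and genes with a clone or predicted model name.

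Among other genes of the pathway, 65 were tested in 6 lists by role, of which 2 rose (3.08%) and 8 fell (12.3%). These shares are near those of all genes tested, 4.27% and 9.28%, so the counts of each list are given as a description of the genes named. Of 11 ligand genes, 3 were tested and 1 fell: Tnf, the founding ligand of the pathway, stood at 3.87 to 10.11 FPKM in VEH and 1.63 to 6.56 in DEX and fell by 0.74 ± 0.10 on the log2 scale (adjusted p = 0.0036), in 6 of 6 leukemias. Of 18 receptor genes, 7 were tested and 1 fell. This was Cd27, a TNF-family receptor of T cells, which fell from 135 ± 20.1 to 92.2 ± 18.4 FPKM (SD, n = 6), by 0.56 ± 0.07 (adjusted p = 0.0035). The medians of the tested ligands and receptors were -0.24 and -0.17, against -0.05 over all genes tested.

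Of 16 adaptor and antigen-receptor genes, 15 were tested, 0 rose and 1 fell. Traf3, which holds back the kinase of the noncanonical arm, fell from 11.7 to 8.74 FPKM (-0.39, adjusted p = 0.0153). It was lower in 6 of 6 leukemias, and its call ended without leukemia 4 (-0.36, adjusted p = 0.0544). Of 14 genes of the IKK complex and its kinases, all tested, 1 rose and 1 fell. Chuk, which encodes IKK-alpha, fell from 39.2 to 30.8 FPKM (-0.33, adjusted p = 0.0336), and Tab2, an adaptor of the kinase TAK1, rose from 35.7 to 45.1 FPKM (0.31, adjusted p = 0.0281). Leave-one-out sets ended the call of Chuk in 5 of 6 cases (adjusted p up to 0.101) and that of Tab2 in 4 of 6 (adjusted p up to 0.0856).

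Of 13 further IkB-like and A20-associated genes, 12 were tested, 1 rose and 1 fell. Tnip1, which encodes the A20-binding protein ABIN1, stood at 14.21, 14.12, 15.75, 13.50, 13.23 and 9.35 FPKM in VEH and at 19.53, 24.10, 16.69, 24.74, 23.35 and 15.00 FPKM in DEX. It was higher in 6 of 6 leukemias, and rose by 0.58 ± 0.10 (adjusted p = 0.0095). Nfkbid, a nuclear IkB protein of T cells, fell from 5.71 ± 1.41 to 3.74 ± 1.64 FPKM (SD, n = 6; -0.56, adjusted p = 0.0332), a call that ended in 5 of 6 leave-one-out sets (adjusted p up to 0.0974). Of 25 target genes, 14 were tested, 0 rose and 3 fell: Il2ra, the interleukin 2 receptor alpha chain (-1.04, adjusted p = 0.0011), the adhesion molecule gene Icam1 (-0.50, adjusted p = 0.0145) and Cflar, an inhibitor of caspase-8 (-0.40, adjusted p = 0.0047). The median of the tested targets was -0.23, against -0.05 over all genes tested, and these genes also have other regulators. Nfkbia and Tnfaip3, which NF-kappaB also switches on and which rose, are counted with the members and not in this list. The call of Icam1 ended without leukemia 1 or 5 (adjusted p up to 0.0563). Under T lineage scaling the calls of Nfkbid, Chuk, Traf3 and Icam1 ended (adjusted p 0.0548 to 0.304), while those of Tnf, Cd27, Il2ra, Cflar, Tnip1 and Tab2 did not. Rescaled to TPM, the call of Tab2 ended (0.18, adjusted p = 0.236). The call of Chuk ended under median-of-ratios scaling (-0.27, adjusted p = 0.0502) and quantile normalization (-0.29, adjusted p = 0.0506).

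**Figure D4:**
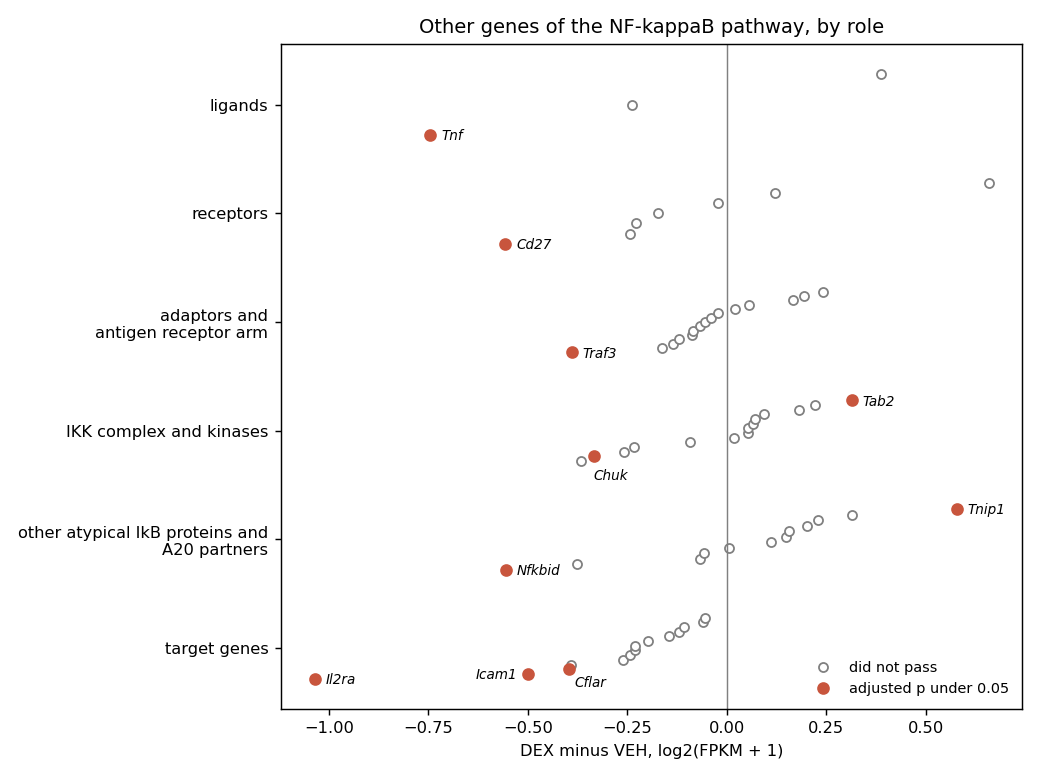
DEX minus VEH on the log2(FPKM + 1) scale (x axis) for each tested gene of 6 pathway lists (y axis); filled points had an adjusted p under 0.05 in limma and open points did not. Tnip1 (0.58) and Tab2 (0.31) were the filled points above 0, and Il2ra (-1.04) and Tnf (-0.74) were the lowest.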

How the data were processed

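Total RNA was sequenced by the submitters (TruSeq stranded kit, per the labels' protocols). Values are linear FPKM with 2 decimals, as deposited by the authors. Per the submitters' processing notes the build was mm10, and Bowtie2 (version 2), RSEM and edgeR were used in roles that are not given. The annotation and any filter are not given in the sources used here. The file holds no counts; reading the smallest values of sparse genes as 1 fragment put the shallowest library at about 11500000 fragments, an uncertain estimate that enters no test.

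Groups came from the treatment label and pairs from the leukemia code in the titles. After removal of group means, the correlation across genes was 0.55 to 0.82 within pairs and at most 0.205 between leukemias. Values were analysed as log2(FPKM + 1) without further scaling. Genes with at least 1 FPKM in at least 6 of 12 libraries were tested in limma 3.58.1 (R 4.3.3; leukemia as a block, eBayes with trend, two-sided) with Benjamini-Hochberg adjustment over all 12358 genes. The test had 5 residual and 3.995 prior degrees of freedom, and it was tested on simulated data. All p-values are from this fit or its alternatives. Coordinates are from GENCODE M21 (GRCm38, the assembly of mm10), sequences from RefSeq (GRCm38.p6). The members and gene lists were chosen with earlier results of these data known. From each list up to 4 genes past the threshold are named. For likeness the 4 genes with the highest r are named, leaving out members and genes with a clone or predicted model name. There were 21 alternatives, of which 2 were chosen after seeing the data (a term for B lineage and erythroid markers, and T lineage scaling). Bcl2a1a and Bcl2a1d of the target list were not matched in the table. From the adaptor list, 1 gene is not reported here.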

Additional observations from a re-analysis of the deposited data

Results flagged for a closer look

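In 5 of 30 sets of 6 values (VEH levels, DEX levels and log2 differences of the 10 members), 1 leukemia stood far from the other 5. The rule flags about 1 in 20 independent sets of normally distributed values. These sets share libraries, the differences come from the same levels, and the levels are linear FPKM. That rate is therefore no measure for the 5 sets. In the DEX libraries, leukemia 6 had the highest Tnfaip3 level at 146.49 FPKM (24.05 to 50.39 in the others), the lowest Nfkbia level at 30.45 FPKM (51.71 to 62.86) and the highest Nfkb2 level at 9.25 FPKM (2.43 to 4.62). The Tnfaip3 difference of leukemia 6 was 2.53 on the log2 scale (0.47 to 0.93 in the others). For Rel, the difference of leukemia 2 was -0.97 (-0.16 to 0.07 in the others), in the pair whose VEH library had the highest B lineage and erythroid marker sums. In the DEX library of leukemia 6, the glucocorticoid reference genes Tsc22d3 (220.46 FPKM), Sgk1 (49.05) and Per1 (36.08) were the highest of the 6. Per1 stood at 3.87 to 8.91 FPKM in the other DEX libraries. Fkbp5 (502.11 FPKM), Nr3c1 (62.22) and Klf9 (0.17) were the lowest of the 6 in leukemia 6, and Dusp1 and Ddit4 lay between. Nfkb2 was also highest in the VEH library of leukemia 6, at 10.68 FPKM (3.18 to 8.07 in the others). The VEH library of leukemia 6 also had the highest Sgk1 (36.86 FPKM) and the lowest Nr3c1 (35.65), and Klf9 shared the lowest VEH level (0.06). Per1 (2.53 FPKM) was the lowest of the VEH libraries there, and Tsc22d3 (52.56) and Fkbp5 (329.72) lay between. For the other values of leukemia 6, each arm being 1 library, a property of the leukemia and of its DEX library cannot be told apart.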

How the results depend on the processing

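Nfkbia, Tnfaip3 and Nfkb2 kept their direction in all 21 alternatives and passed in 19, 13 and 11 of them. Each had the same direction in every leukemia, so in fits on fewer leukemias the direction could not turn. Without the replicate block, 0 members were higher and 0 lower (Nfkbia 0.67, adjusted p = 0.133), where 35 and 46 of all genes passed against 528 and 1147 with it. With no filter, 1 member was higher and 0 lower. Rescaled to TPM, 2 were lower (Nfkb1 and Nfkb2). Leaving out 1 leukemia gave 1 to 2 members higher, 0 to 1 lower and 1 to 4 that differed between leukemias. Median-of-ratios scaling left 2 that differed between leukemias. Leukemias 1, 3 and 4 alone gave 0 lower, and leukemias 2, 5 and 6 alone 0 higher and 0 lower. A term for the myeloid markers gave 1 higher and 0 lower, and a term for B lineage and erythroid markers, chosen after seeing the data, likewise 1 and 0. Scaling to the T lineage marker mean, also chosen after seeing the data, gave 2 higher and 0 lower. Over all genes, the counts higher and lower were 181 and 370 with no filter, 388 and 523 in leukemias 1, 3 and 4, 188 and 257 in leukemias 2, 5 and 6, 350 and 720 with the myeloid term and 258 and 478 with the B lineage and erythroid term. Fits on fewer leukemias or with more terms have fewer degrees of freedom; the cause of the other changes was not tested.

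Signs turned for 5 members, none of which passed under those settings. Under T lineage scaling Nfkb1 stood at 0.0758, Rel at 0.0110 and Rela at 0.198. Rela also stood at 0.0399 under median-of-ratios scaling, 0.0419 under quantile normalization and 0.0239 in leukemias 2, 5 and 6, and at -0.0554 to 0.0414 with 1 leukemia left out, the highest without leukemia 3. Nfkbib stood at -0.123 rescaled to TPM, -0.265 in leukemias 1, 3 and 4, -0.130 with the myeloid term and -0.0274 with the B lineage and erythroid term. With 1 leukemia left out it was -0.0881 to 0.0870, below 0 without leukemia 2, 5 or 6. Nfkbie stood at -0.0610 rescaled to TPM and at -0.0435 to 0.248 with 1 leukemia left out, below 0 without leukemia 6. The split of all calls depended on scaling: 31.5% of them were higher here, 48.8% under median-of-ratios scaling, 43.6% under quantile normalization, 91.3% under T lineage scaling (3408 higher and 325 lower, median 0.16) and 12.8% rescaled to TPM (267 higher and 1820 lower, median -0.17). The T lineage scaling rests on 13 markers of which 5 fell and 1 rose with DEX. With at least 1 FPKM required in all 12 libraries, Rel and Relb were not fitted. Depth is not given, so no counting interval could be set on Rel and Relb, at about 1 to 3 FPKM.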
